A study of Mus musculus with 6 samples.

Results

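Myoblasts leave the cell cycle before they fuse into muscle, and the genes described here control that exit. They are 10 genes chosen by name, comprising the cyclin-dependent kinase (CDK) inhibitors of the Cip/Kip family (*Cdkn1a*, *Cdkn1b*, *Cdkn1c*), inhibitors of the INK4 family (*Cdkn2a*, *Cdkn2c*), the retinoblastoma family (*Rb1*, *Rbl1*, *Rbl2*) and the D cyclins *Ccnd1* and *Ccnd3*. All 10 are among the 46078 genes listed in the count table, 9 had reads and all 9 of those passed the filter on low counts, as did 14828 genes in all. That *Rb1* was lower in KO libraries was known when the genes were chosen.

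RNA was sequenced from C2C12 cells, an immortalized mouse myoblast line, in 3 libraries from *Hnrnpa2b1* knockout cells (KO1 to KO3) and 3 from *Hnrnpa2b1*-WT cells (WT1 to WT3). *Hnrnpa2b1* encodes an RNA-binding protein, and the knockout was made with CRISPR-Cas9. In myoblasts of both genotypes, differentiation was induced 2 days before harvest, by serum withdrawal with ITS added. The cells harvested were a mixture of myoblasts and myotubes. Clones of each genotype had been picked with a cloning ring, but which clone gave each library is not given in the sources used here, so p-values measure only the spread between these libraries.

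In a cycling myoblast, D cyclins activate CDK4 and CDK6, which phosphorylate the retinoblastoma proteins and release E2F transcription factors, and E2F then switches on genes of DNA synthesis. CDK inhibitors block this step. The retinoblastoma proteins pRb, p107 and p130, encoded by *Rb1*, *Rbl1* and *Rbl2*, hold E2F target genes silent in cells that have left the cycle, p107 and p130 as parts of a repressor complex called DREAM. In muscle, p21 (*Cdkn1a*) is known to be induced as myoblasts differentiate, pRb is known to be needed for a lasting exit, *Ccnd1* is known to be turned off and *Ccnd3* to be kept.

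Each library held between 33605258 and 40558740 counted reads. *Hnrnpa2b1* RNA itself, the check of the labels that these files allow, measured 159, 195 and 249 CPM (read counts scaled to a common library total) in KO1 to KO3 and 225, 229 and 252 CPM in WT1 to WT3. The ranges overlapped and the log2 fold change (KO over WT throughout) was −0.23 (adjusted p = 0.381, edgeR), so the RNA does not by itself tell the genotypes apart. By TPM it measured 29.5, 38 and 59.9 TPM in KO1 to KO3 and 56.6, 57.4 and 58 TPM in WT1 to WT3. The library labelled KO3 thus lay above every WT library by TPM, whereas by CPM it lay below WT3. RNA level alone does not show whether the protein was lost. Libraries are named here by their labels, and the text below says where the call of a member was lost without KO3. The methods state that loss of the protein was checked in the KO clones by Western blot and immunofluorescence, data not used here. Muscle markers were abundant in every library, with summed values of 1240 to 1670 TPM (the share of transcripts, corrected for their length). However, 3 of the 6 differed between genotypes, beside 22.7% of all tested genes. *Myod1* (log2 fold change 0.99, adjusted p = 0.0141) and *Cdh15* (0.70, adjusted p = 0.0258) were higher in KO and *Myf5* (−1.50, adjusted p = 0.0303) was lower. The endothelial, immune and epithelial lists, unlike the muscle markers, each summed to at most 1.73 TPM in any library. A list of 12 differentiation genes summed to 9930, 4210 and 4200 TPM in KO1 to KO3 and 9260, 7180 and 8330 TPM in WT1 to WT3. KO1 thus lay above all WT libraries on this sum and the other KO libraries lay below them. Of the 12, edgeR on counts called *Mef2c* alone, a transcription factor of muscle genes (log2 fold change −4.40, adjusted p = 0.0169), and the log2 fold change was −6.35 without KO1 and −3.89 without KO3. The call was lost without WT3 (adjusted p = 0.0556). At an unadjusted p under 0.05, 5 of the 12 were lower and 0 higher, near the 39.0% of all tested genes that passed it. DESeq2 called 4 of the 12, all lower, beside 23.9% of all genes it tested, and without KO1 edgeR called 9, all lower, beside 30.6%. On TPM, limma called 5 of the 12 and all were lower (*Mef2c*, *Myh8*, *Actc1*, *Tnni1* and *Myh3*), beside 20.5% of all genes tested on TPM. The last 4 were named after their values were seen. The shares of all genes given beside these counts hold calls in either direction. Fibro-adipogenic markers summed to 76.5, 92.3 and 52 TPM in KO1 to KO3 and 11.8, 10.5 and 14.3 TPM in WT1 to WT3. Of the 4, 3 were called higher (*Dpt*, *Ly6a* and *Pdgfra*, with *Dcn* not called), beside 12.1% of all tested genes called higher. *Ly6a* was the largest part of each KO sum, at 44.5, 67.8 and 31.9 TPM in KO1 to KO3. The KO libraries differed on *Dpt* (1.36, 21.1 and 15.6 TPM) and, the other way, on *Dcn* (30, 2.64 and 3.15 TPM). The part of these differences in the results on cell cycle exit was not tested, and in bulk RNA fewer cells of a type and less RNA per cell cannot be told apart.

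Of the 9 genes tested, 6 differed between genotypes by edgeR's quasi-likelihood test, with p-values adjusted over all 14828 genes. Higher in KO were *Cdkn1c*, *Rbl1* and *Ccnd1*, and lower in KO were *Cdkn1b*, *Rb1* and *Ccnd3*. Across all tested genes 22.7% were called in either direction, 12.1% higher and 10.6% lower in KO. The fall of *Rb1*, one of the 6, was known beforehand, and the members were chosen with earlier results of these data known. Counts of members called, here and below, therefore describe these genes and are no independent support. The CPM ranges of KO and WT did not overlap for the same 6 genes, as they did not for 44.3% of all tested genes. The Cip/Kip inhibitors, the retinoblastoma family and the D cyclins each held genes called in both directions. CPM in this text carry edgeR's TMM scaling, which lines libraries up on genes that differ little, and serve to compare one gene between libraries, whereas TPM also correct for transcript length and serve to compare genes with each other.

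**Figure D1:**
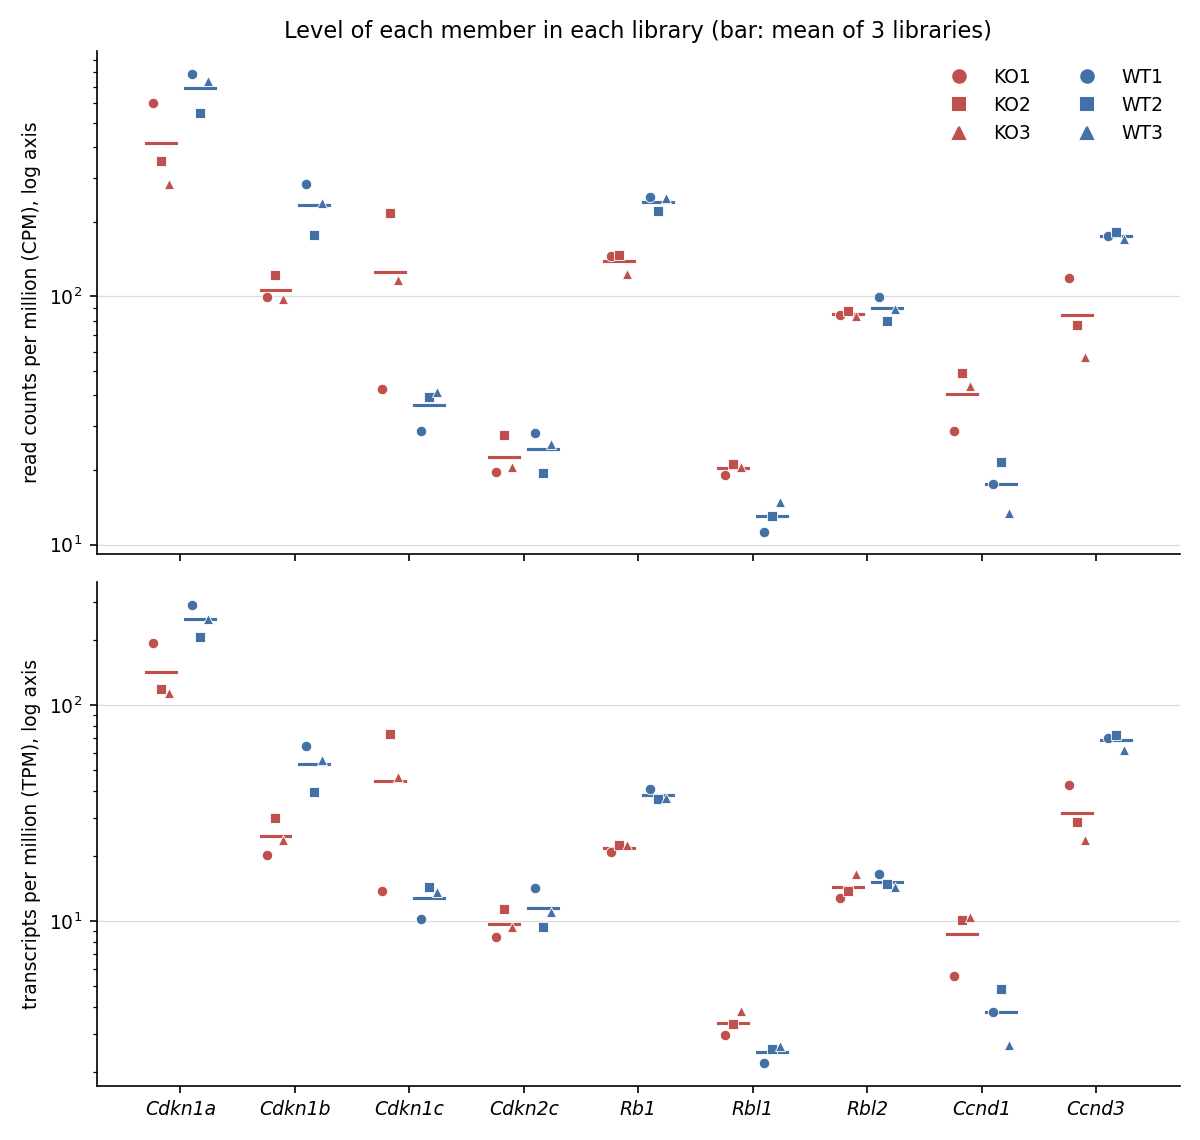
Level of each gene in each library, in CPM (upper panel) and TPM (lower panel) on log axes, with KO in red, WT in blue, a symbol for each replicate number and a bar at the mean of 3 libraries. *Rb1*, *Cdkn1b* and *Ccnd3* lie lower in every KO library than in any WT library and *Ccnd1* and *Rbl1* lie higher, while *Cdkn2a*, at 0 in every library, is not drawn.

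The promoters of the genes that changed are shown for orientation, since the retinoblastoma and E2F proteins act at promoters. The table of RefSeq promoters used here (build GRCm38.p6) matched 7 of the 10 genes, and the promoters of *Rb1*, *Ccnd1* and *Cdkn1c* were not analysed here. The 250 bases before the start site were searched on both strands for 3 motifs: the E2F motif as TTTCCCGC, TTTCGCGC, TTTGCCGC or TTTGGCGC, the E-box CAGCTG that MyoD binds, and the CHR element TTTGAA of cell cycle genes. TTTCGCGC and TTTGCCGC were added to the E2F spellings after the sequences had been read. The promoters printed are those of *Rbl1*, which rose and holds matches, and of *Cdkn1b* and *Ccnd3*, which fell and hold none, each 5′ to 3′ on the gene's own strand and in lower case with motif matches in capitals.
Rbl1 (chr2:157204535-157204784, minus strand): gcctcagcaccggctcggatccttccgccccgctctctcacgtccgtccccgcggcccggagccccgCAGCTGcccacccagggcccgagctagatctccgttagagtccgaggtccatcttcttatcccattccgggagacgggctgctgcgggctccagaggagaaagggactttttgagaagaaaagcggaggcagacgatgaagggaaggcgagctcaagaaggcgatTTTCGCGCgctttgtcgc
Cdkn1b (chr6:134920151-134920400, plus strand): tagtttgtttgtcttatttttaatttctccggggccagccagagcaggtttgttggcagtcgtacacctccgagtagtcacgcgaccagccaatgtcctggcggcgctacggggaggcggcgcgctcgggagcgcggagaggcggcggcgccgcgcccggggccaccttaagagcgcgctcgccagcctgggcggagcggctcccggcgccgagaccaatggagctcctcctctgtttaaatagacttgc
Ccnd3, first start site (chr17:47504801-47505050, plus strand): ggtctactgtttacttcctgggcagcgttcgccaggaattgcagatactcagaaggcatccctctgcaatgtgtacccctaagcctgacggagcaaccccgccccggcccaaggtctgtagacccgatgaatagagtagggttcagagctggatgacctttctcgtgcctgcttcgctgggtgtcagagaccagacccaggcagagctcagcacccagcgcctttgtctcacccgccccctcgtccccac
In *Rbl1* the capitals mark the E-box, beginning 183 bases before the start site, and the E2F motif, beginning 18 bases before it. The E2F match of *Rbl1* is one of the spellings added after its sequence had been read, and with the 2 first spellings, found in 1.3% of windows, *Rbl1* held none. With all 4 spellings an E2F match stood in 1.86%, a CAGCTG in 13% and a TTTGAA in 16% of 32851 RefSeq promoter windows of this length. *Cdkn1a*, *Cdkn2c* and *Ccnd3* held none of the letters searched at either of their start sites, *Rbl2* held TTTGAA 201 bases before its start, and *Cdkn2a* held an E2F match 99 bases before its outer start. These matches describe sequence and were not tested as binding sites.

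The Cip/Kip inhibitors bind cyclin-CDK complexes and stop them. *Cdkn1a* (p21; chromosome 17, 29090979 to 29100722, positions on GRCm38 throughout) was the most abundant of the 10 genes in every library. It measured 604, 352 and 285 CPM in KO1 to KO3 and 790, 547 and 740 CPM in WT1 to WT3. KO1 lay above the lowest WT library, so the ranges overlapped, and the log2 fold change of −0.74 (SE 0.295) did not pass the test (adjusted p = 0.104). By TPM the libraries did separate, at 194, 119 and 114 TPM in KO and 291, 206 and 249 TPM in WT, and limma on log2(TPM + 1) called it lower (log2 difference −0.83, adjusted p = 0.0394). On counts the call was also made by DESeq2 (−0.77, adjusted p = 0.0393), without a filter on low counts (−0.77, adjusted p = 0.00578) and without KO1 (−1.12, adjusted p = 0.00678). Over the 12 alternatives of the count test its log2 fold change ran from −1.12 to −0.53, so the direction held while the call turned on the measure, the tool and KO1. The call on TPM was not made when KO2, KO3, WT1 or WT3 was left out, nor without a filter on TPM (adjusted p up to 0.17).

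*Cdkn1b* (p27; chromosome 6, 134920401 to 134925513) fell. It measured 99.8, 122 and 97.5 CPM in KO1 to KO3 and 285, 177 and 239 CPM in WT1 to WT3, so that the highest KO library lay below the lowest WT library. The level in WT was 2.2 times that in KO (log2 fold change −1.13, SE 0.196, adjusted p = 0.00812), and TPM gave a log2 difference of −1.07 (adjusted p = 0.0119). *Cdkn1b* stayed called in all 12 alternatives of the count test, with log2 fold changes from −1.31 to −0.97. The call on TPM was lost without WT1 (adjusted p = 0.0714), without WT3 (0.0531) and without a filter on TPM (0.0686).

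*Cdkn1c* (p57; chromosome 7, 143458350 to 143461050), an imprinted gene, went the other way. It measured 42.4, 217 and 116 CPM in KO1 to KO3 and 28.6, 39.5 and 41.3 CPM in WT1 to WT3. KO2 and KO3 stood well above WT, while KO1 lay only just above the highest WT library. The log2 fold change was 1.78 (SE 0.503, adjusted p = 0.0397), and TPM, with KO1 inside the WT range at 13.7 TPM, gave 1.45 and no call (adjusted p = 0.0683). On TPM it was called without KO1 (2.12, adjusted p = 0.000355) and with the replicate number as a block (adjusted p = 0.00569), and the log2 difference was 0.95 without KO2. Leaving out any library but KO1 ended the call on counts, with log2 fold changes of 1.13 without KO2, 1.84 without KO3, 1.62 without WT1, 1.83 without WT2 and 1.85 without WT3. Without KO1 it was 2.19 (adjusted p = 0.00101).

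Summed over the family, Cip/Kip RNA was 228, 222 and 184 TPM in KO1 to KO3 and 365, 259 and 319 TPM in WT1 to WT3, lower in every KO library than in any WT library (p = 0.1 in an exact permutation test, two-sided, of 3 against 3 libraries, the smallest p this design allows). The make-up of the sum varied more between KO libraries than between WT libraries. *Cdkn1a* made up 79.6%, 79.3% and 78.2% of it in WT1 to WT3, against 85.1%, 53.6% and 61.9% in KO1 to KO3. KO1 lay above WT and the other KO libraries below, so the mean difference of −12.2 percentage points did not separate the genotypes (p = 0.4, exact permutation test). It was −21.3 points without KO1 and −5.52 without KO2. In KO2, *Cdkn1c* at 73.3 TPM exceeded *Cdkn1b* at 29.9 TPM, and in KO3 the values were 46.3 and 23.8 TPM, whereas in KO1 and in every WT library *Cdkn1b* was the more abundant of the pair.

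INK4 inhibitors bind CDK4 and CDK6 and keep D cyclins from activating them. *Cdkn2a* (p16 and p19Arf; chromosome 4, 89274471 to 89294653) had 0 reads in all 6 libraries, where a count of 0 allows up to 3 counts, or 0.074 to 0.0893 CPM before TMM scaling, for counting error only. Its neighbour *Cdkn2b*, 11.6 kb away and encoding the INK4 inhibitor p15, also had 0 reads in all 6 libraries. *Mtap*, a gene of methionine salvage 93.4 kb away on the other side, was expressed, with 1679 to 3294 reads per library. Farther out on either side, *Ifne* at 394.3 kb and *Dmrta1* at 384.8 kb had at most 2 reads in any library. Of the 2 genes of the INK4 locus there was therefore no RNA to compare between genotypes.

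*Cdkn2c* (p18; chromosome 4, 109660876 to 109667189) was present and measured 19.6, 27.7 and 20.6 CPM in KO1 to KO3 and 28.2, 19.4 and 25.5 CPM in WT1 to WT3. The ranges overlapped, and the log2 fold change was −0.11 (SE 0.2, adjusted p = 0.72), 0.02 when libraries were scaled by their totals alone and 0.00 without WT1. The remaining INK4 gene, *Cdkn2d* (p19), was measured as part of the wider pathway and fell, from 26.5, 15.1 and 21 CPM in WT1 to WT3 to 8.28, 12.6 and 7.18 CPM in KO1 to KO3 (log2 fold change −1.16, adjusted p = 0.0241). Its call was lost without KO3, WT1 or WT3 (adjusted p = 0.0707, 0.102 and 0.0733) and with the replicate number as a block (0.0514).

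**Figure D2:**
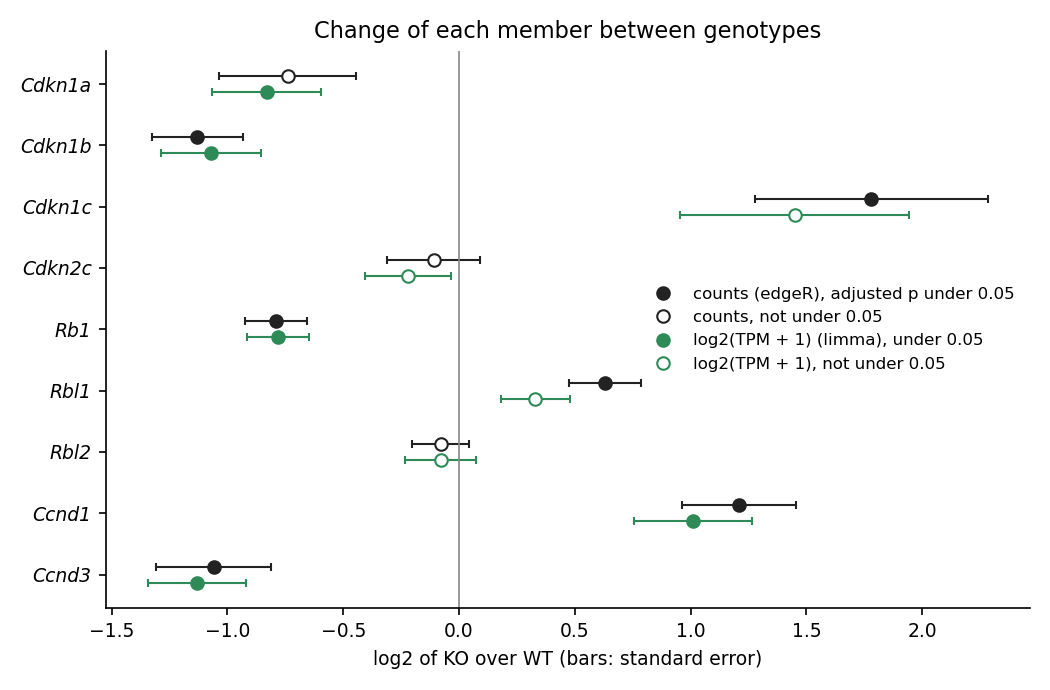
Log2 of KO over WT for the 9 genes with reads, from counts with edgeR (black) and from log2(TPM + 1) with limma (green), with bars of 1 standard error and filled points where the adjusted p was under 0.05. *Cdkn1b*, *Rb1* and *Ccnd3* lie left of 0 and *Ccnd1* right of 0 with filled points on both measures, while *Cdkn1a*, *Cdkn1c* and *Rbl1* are filled on one measure only.

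Of the retinoblastoma family, *Rb1* (chromosome 14, 73183673 to 73325822) was lower in every KO library. It measured 145, 147 and 123 CPM in KO1 to KO3 and 252, 220 and 249 CPM in WT1 to WT3, with a log2 fold change of −0.79 (SE 0.135, adjusted p = 0.00762) and 1.73 times as much in WT as in KO. On TPM the values were 20.8, 22.4 and 22.4 TPM in KO and 40.9, 36.6 and 37 TPM in WT, and the log2 difference was −0.78 (adjusted p = 0.00639). The call stood in all 12 alternatives of the count test, with log2 fold changes from −0.86 to −0.68 and adjusted p up to 0.049, and on TPM it was lost only without WT1 (adjusted p = 0.0542). Since this fall was known beforehand, these values describe it and are no independent support.

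*Lpar6*, a receptor gene that lies within *Rb1* on the opposite strand, moved the other way and was far less abundant, at 4.67, 4.51 and 7.3 CPM in KO1 to KO3 and 2.17, 2.8 and 2.94 CPM in WT1 to WT3 (log2 fold change 1.06, adjusted p = 0.0324). Its call was lost without KO3 or any 1 WT library (adjusted p up to 0.134). *Rcbtb2*, which overlaps the 3′ end of *Rb1* on the opposite strand, had 849 to 1238 reads per library and was not called (log2 fold change 0.09, adjusted p = 0.619). The use of strand in counting is not given in the sources used here, so reads of overlapping genes on opposite strands cannot be told apart. Around *Rb1*, the 56 tested genes within 5 Mb on either side had a median log2 fold change of 0.24, of which 8 were called higher and 2 lower, where 12.1% and 10.6% of all tested genes were. Around the other members the same median ran from −0.09 to 0.04, except for *Rbl2*. Its 73 neighbours had a median of 0.36, with 21 called higher and 2 lower. *Lpar6* and the other overlapping genes were named after their values were seen.

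*Rbl1* (p107; chromosome 2, 157145893 to 157204534), whose promoter is printed above, rose modestly. It measured 19.1, 21.1 and 20.6 CPM in KO1 to KO3 and 11.3, 13.1 and 14.8 CPM in WT1 to WT3, with no overlap, a log2 fold change of 0.63 (SE 0.155) and adjusted p = 0.0258. By TPM the ranges were also apart, at 2.96 to 3.82 TPM in KO and 2.2 to 2.63 TPM in WT, but the log2 difference of 0.33 was not called (adjusted p = 0.143). On counts the call was lost when any library but KO1 was left out, with adjusted p of 0.0542 without KO2, 0.0605 without KO3, 0.12 without WT1, 0.0702 without WT2 and 0.0588 without WT3. *Rbl2* (p130; chromosome 8, 91070057 to 91123844), the member typical of resting cells, measured 84.5, 87.4 and 83.1 CPM in KO1 to KO3 and 99.8, 79.6 and 89.3 CPM in WT1 to WT3. All 3 KO libraries lay inside the WT range, and the log2 fold change was −0.08 (SE 0.124, adjusted p = 0.687), 0.04 with scaling by library totals alone and 0.00 without WT1. It overlaps *Aktip*, on the opposite strand, which was not called (log2 fold change −0.13, adjusted p = 0.507).

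The family's RNA summed to 36.4, 39.4 and 42.7 TPM in KO1 to KO3 and 59.6, 53.9 and 53.9 TPM in WT1 to WT3. *Rb1* made up 57.1%, 56.7% and 52.3% of the sum in KO and 68.7%, 67.9% and 68.7% in WT. The share was lower in every KO library, with a mean difference (KO minus WT) of −13.1 percentage points. It is given as a description with no test, since it draws on the same fall of *Rb1*.

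**Figure D3:**
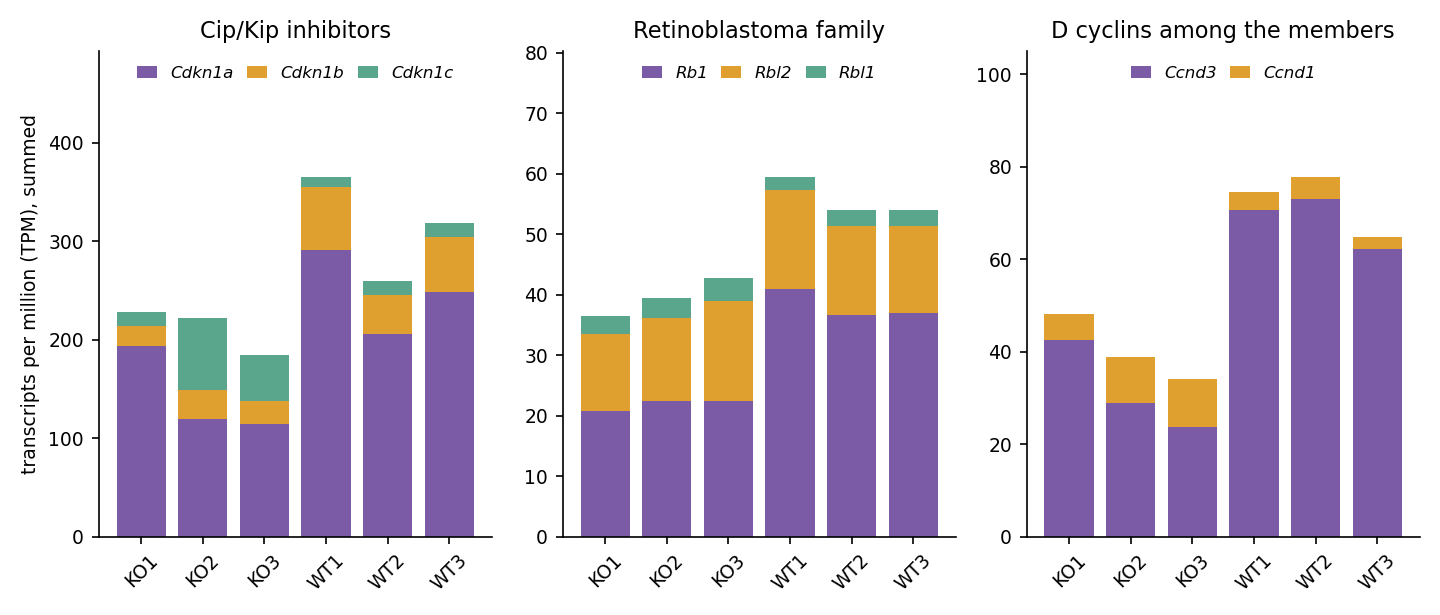
Stacked TPM of the Cip/Kip inhibitors, the retinoblastoma family and the D cyclins *Ccnd3* and *Ccnd1* in each library, on linear axes from 0. All 3 sums are lower in every KO library than in any WT library, *Cdkn1c* widens in KO2 and KO3 but not in KO1, and *Ccnd1* takes a larger part of a smaller sum in KO.

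The D cyclins moved in opposite directions. *Ccnd1* (cyclin D1; chromosome 7, 144929931 to 144939869), the form of cycling myoblasts, measured 28.8, 49.3 and 43.5 CPM in KO1 to KO3 and 17.6, 21.5 and 13.4 CPM in WT1 to WT3. Every KO library lay above every WT library, the level in KO was 2.32 times that in WT (log2 fold change 1.21, SE 0.246, adjusted p = 0.0138), and TPM gave a log2 difference of 1.01 (adjusted p = 0.0264). On counts the call was lost without WT1 (adjusted p = 0.0654) or WT3 (0.0592), and on TPM without KO2, KO3, WT1 or WT3 or a filter on TPM (adjusted p up to 0.122). *Ccnd1* overlaps *Oraov1*, on the opposite strand, at its 3′ end, and *Oraov1*, with 157 to 503 reads per library, was also called higher (log2 fold change 0.92, adjusted p = 0.0186).

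*Ccnd3* (cyclin D3; chromosome 17, 47505051 to 47599691), the form kept in differentiating muscle, measured 119, 77.1 and 56.9 CPM in KO1 to KO3 and 175, 182 and 171 CPM in WT1 to WT3. The WT libraries were close to each other and the KO libraries were spread, all below WT, with KO1 nearest to it. The log2 fold change was −1.06 (SE 0.248, adjusted p = 0.0218), and TPM gave −1.13 (adjusted p = 0.00899). On counts the call was lost without KO2 (adjusted p = 0.0544), WT1 (0.0807), WT2 (0.0535) or WT3 (0.0622). The log2 fold change was −1.40 without KO1 and −0.84 without KO3. On TPM it was lost without WT1 (adjusted p = 0.0572) and without a filter on TPM (0.0591). *Ccnd3* overlaps *Bysl*, on the opposite strand, which was also called lower (log2 fold change −0.46, adjusted p = 0.0386).

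Within a library, the log2 ratio of *Ccnd3* to *Ccnd1* TPM was 4.22, 3.91 and 4.55 in WT1 to WT3, against 2.93, 1.51 and 1.18 for KO1 to KO3. The genotypes did not overlap and differed by −2.35 on average (p = 0.1, exact permutation test, the smallest possible), and by −2.88 to −2.01 with any 1 library left out. Summed, the pair fell from 74.5, 77.8 and 64.7 TPM in WT1 to WT3 to 48, 38.9 and 34 TPM in KO1 to KO3, since *Ccnd3* was the more abundant. The remaining D cyclin, *Ccnd2*, measured 21.6, 2.91 and 3.15 CPM in KO1 to KO3 and 39.1, 118 and 47.9 CPM in WT1 to WT3. It fell with a log2 fold change of −2.90 (SE 0.833, adjusted p = 0.042), KO1 again lying nearest to WT. The log2 fold change was −4.50 without KO1 and −2.26 without WT2, and the call was lost when any library but KO1 was left out (adjusted p = 0.0797 to 0.108).

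The replicates of the KO group were thus not alike. On *Cdkn1a*, *Cdkn1c*, *Rbl1*, *Ccnd1* and *Ccnd3*, KO1 was the KO library nearest to WT, on *Cdkn1b* it was not, and on *Rb1* it lay close to KO2. Relative to the WT mean, the log2 CPM difference of *Cdkn1a* was −0.18 for KO1, −0.96 for KO2 and −1.26 for KO3, that of *Ccnd3* was −0.57, −1.19 and −1.63, and that of *Cdkn1c* was 0.24, 2.59 and 1.69. For *Cdkn1b* it was −1.20, −0.91 and −1.23, and for *Rb1* −0.73, −0.70 and −0.96. KO1 was also the library whose differentiation genes summed to the highest TPM. In KO1 *Acta1*, *Tnnc1*, *Tnnt3*, *Mymk*, *Mymx* and *Myog* lay above every WT library by TPM, and *Mef2c*, *Myh8*, *Actc1*, *Tnni1* and *Myh3* below. The genes lying above were named after their values were seen. The part of differentiation state in these values was not tested.

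The order of mean levels, which only TPM can give, differed between genotypes mainly in the place of *Cdkn1c*. In WT the mean levels ran from *Cdkn1a* at 249 ± 42.5 TPM (SD, n = 3) through *Ccnd3* at 68.6 ± 5.75, *Cdkn1b* at 53.3 ± 12.8 and *Rb1* at 38.2 ± 2.39 TPM. These were followed by *Rbl2* at 15.1 ± 1.14, *Cdkn1c* at 12.7 ± 2.18, *Cdkn2c* at 11.5 ± 2.49, *Ccnd1* at 3.77 ± 1.09 and *Rbl1* at 2.46 ± 0.229 TPM. Neighbours in this order overlapped between *Ccnd3* and *Cdkn1b*, between *Cdkn1b* and *Rb1* and between *Cdkn1c* and *Cdkn2c*, and *Rbl2* and *Cdkn1c* touched at 14.3 TPM. In KO, *Cdkn1a* remained first at 142 ± 44.6 TPM, and *Cdkn1c* at 44.4 ± 29.9, *Ccnd3* at 31.6 ± 9.74, *Cdkn1b* at 24.6 ± 4.88 and *Rb1* at 21.8 ± 0.921 TPM followed with overlapping ranges. The second place of *Cdkn1c* rests on KO2 (73.3 TPM) and KO3 (46.3 TPM), since in KO1 it stood at 13.7 TPM, below *Ccnd3* at 42.5, *Rb1* at 20.8 and *Cdkn1b* at 20.2 TPM. *Rbl2* at 14.3 ± 2 TPM, *Cdkn2c* at 9.7 ± 1.5, *Ccnd1* at 8.69 ± 2.7 and *Rbl1* at 3.36 ± 0.429 TPM came last, and *Cdkn2c* and *Ccnd1* overlapped.

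With TPM as the measure, 5 of the 9 genes were called, with *Ccnd1* higher and *Cdkn1a*, *Cdkn1b*, *Rb1* and *Ccnd3* lower, where 20.5% of the 11691 genes tested were called. TPM ranges did not overlap for 6 of the 9, and for 40.6% of all genes tested. *Cdkn1b*, *Rb1*, *Ccnd1* and *Ccnd3* were called by both measures. Over the settings of the count test, the number of members called ran from 2 to 7, and *Cdkn1b* and *Rb1* were called in all of them. It was 3 without KO2 or WT2, where 17.7% and 13.6% of all genes were called, and 2 without WT1 or WT3, where 6.01% and 8.43% were. Without the library labelled KO3, where 13.9% of all genes were called, it was 4, with *Ccnd1* higher and *Cdkn1b*, *Rb1* and *Ccnd3* lower. On TPM no member was called without WT1, where 484 of 11491 genes were called in all.

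**Figure D4:**
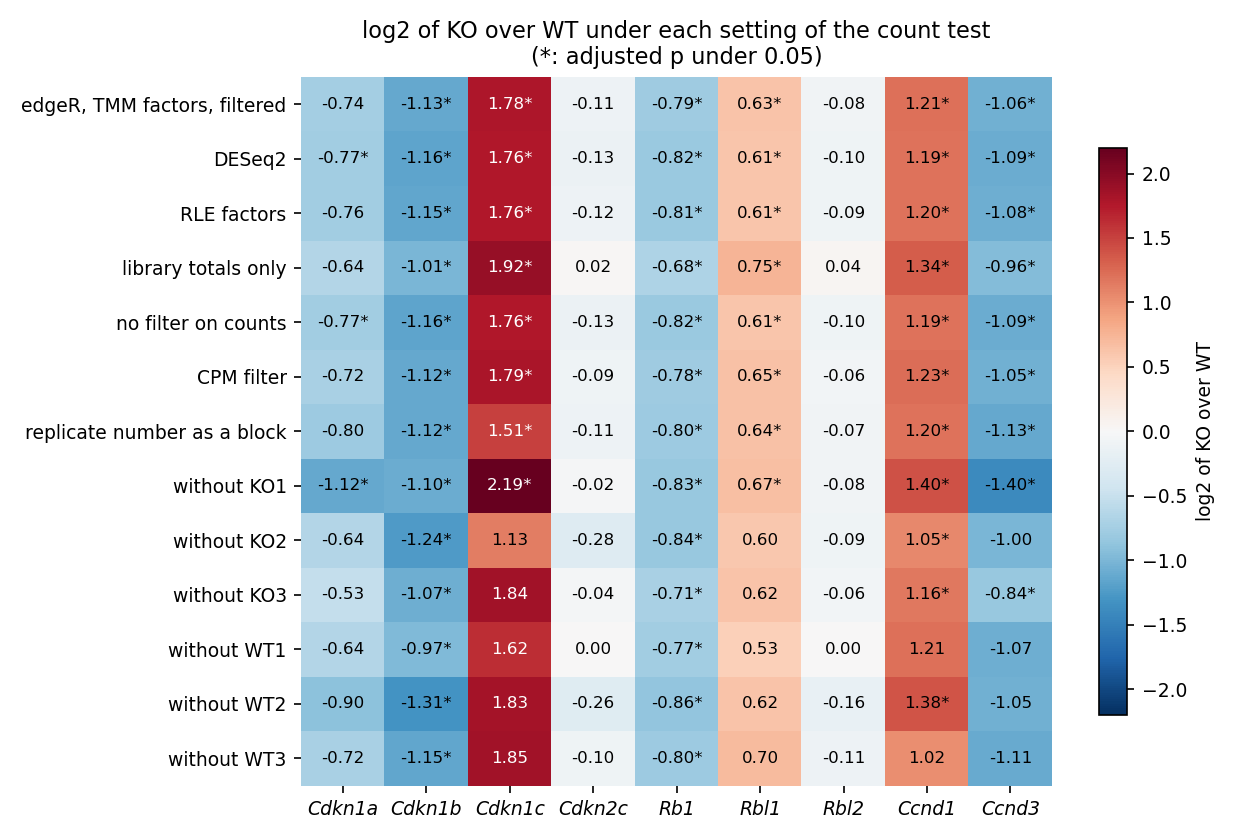
Log2 of KO over WT for the 9 genes (columns) under each setting of the count test (lines), coloured from blue (lower in KO) to red (higher in KO), with an asterisk where the adjusted p was under 0.05. *Cdkn1b* and *Rb1* carry an asterisk in every line, and only those 2 genes do so without WT1 or without WT3.

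In the wider pathway, the genes that drive or read this switch moved both ways. Of 38 further genes of CDKs, cyclins, E2F and DREAM components and their regulators, 37 were tested, 5 were called higher and 5 lower (27%, beside 22.7% of all genes), and the median log2 fold change was 0.04, beside 0.03 over all tested genes. The share called was near that of all genes, and the number was 5 without KO3, 4 without WT1 or WT3, where fewer genes were called over the whole table too, and 6 with the replicate number as a block. On TPM, 3 of the 35 tested were called higher and 5 lower, beside 20.5% of all genes tested on TPM called in either direction. Those called higher by counts included E2F activators and a repressor of their targets. *E2f2* measured 90.9, 114 and 64.3 CPM in KO1 to KO3 and 27, 34.2 and 41.8 CPM in WT1 to WT3 (log2 fold change 1.39, adjusted p = 0.0082), and *E2f1* had a log2 fold change of 0.79 (adjusted p = 0.0378). *E2f8*, an atypical E2F that represses, had 0.51 (adjusted p = 0.0245). *Ccne2* (cyclin E2), which activates CDK2 at the start of S phase, measured 10.5, 19.9 and 16 CPM in KO1 to KO3 and 5.96, 5.45 and 6.04 CPM in WT1 to WT3 (log2 fold change 1.41, adjusted p = 0.00829). *Mybl2* (B-Myb), which joins the DREAM core in cycling cells, had 1.60 (adjusted p = 0.0271) at no more than 4.54 CPM in any library.

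Lower in KO, beside *Ccnd2* and *Cdkn2d* above, were *Cdc25a*, *Mdm2* and *Lin37*. *Cdc25a*, the phosphatase that activates CDK2, had a log2 fold change of −1.12 (adjusted p = 0.00695), against the direction of *Ccne2*. *Mdm2*, the ubiquitin ligase of p53 and a p53 target like *Cdkn1a*, measured 87.4, 80 and 83.7 CPM in KO1 to KO3 and 164, 131 and 137 CPM in WT1 to WT3 (log2 fold change −0.78, adjusted p = 0.00726). *Lin37*, a DREAM subunit, had −0.74 (adjusted p = 0.042). *E2f2*, *Ccne2*, *Cdc25a* and *Mdm2* were called in all 12 alternatives of the count test. The calls of *E2f1*, *E2f8*, *Mybl2* and *Lin37* were each lost without WT1 and without WT3, among others, with adjusted p up to 0.166. The 4 most abundant genes not called were *Cdk4*, the partner of D cyclins (log2 fold change 0.14, adjusted p = 0.588), *Rbbp4*, a histone-binding DREAM subunit (−0.30, adjusted p = 0.182), *Cdc37*, a chaperone of CDK4 (−0.48, adjusted p = 0.06, but called with no filter on counts, at 0.0403, and without KO2, at 0.0388), and *Tfdp1*, the E2F partner DP1 (0.01, adjusted p = 0.976).

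**Figure D5:**
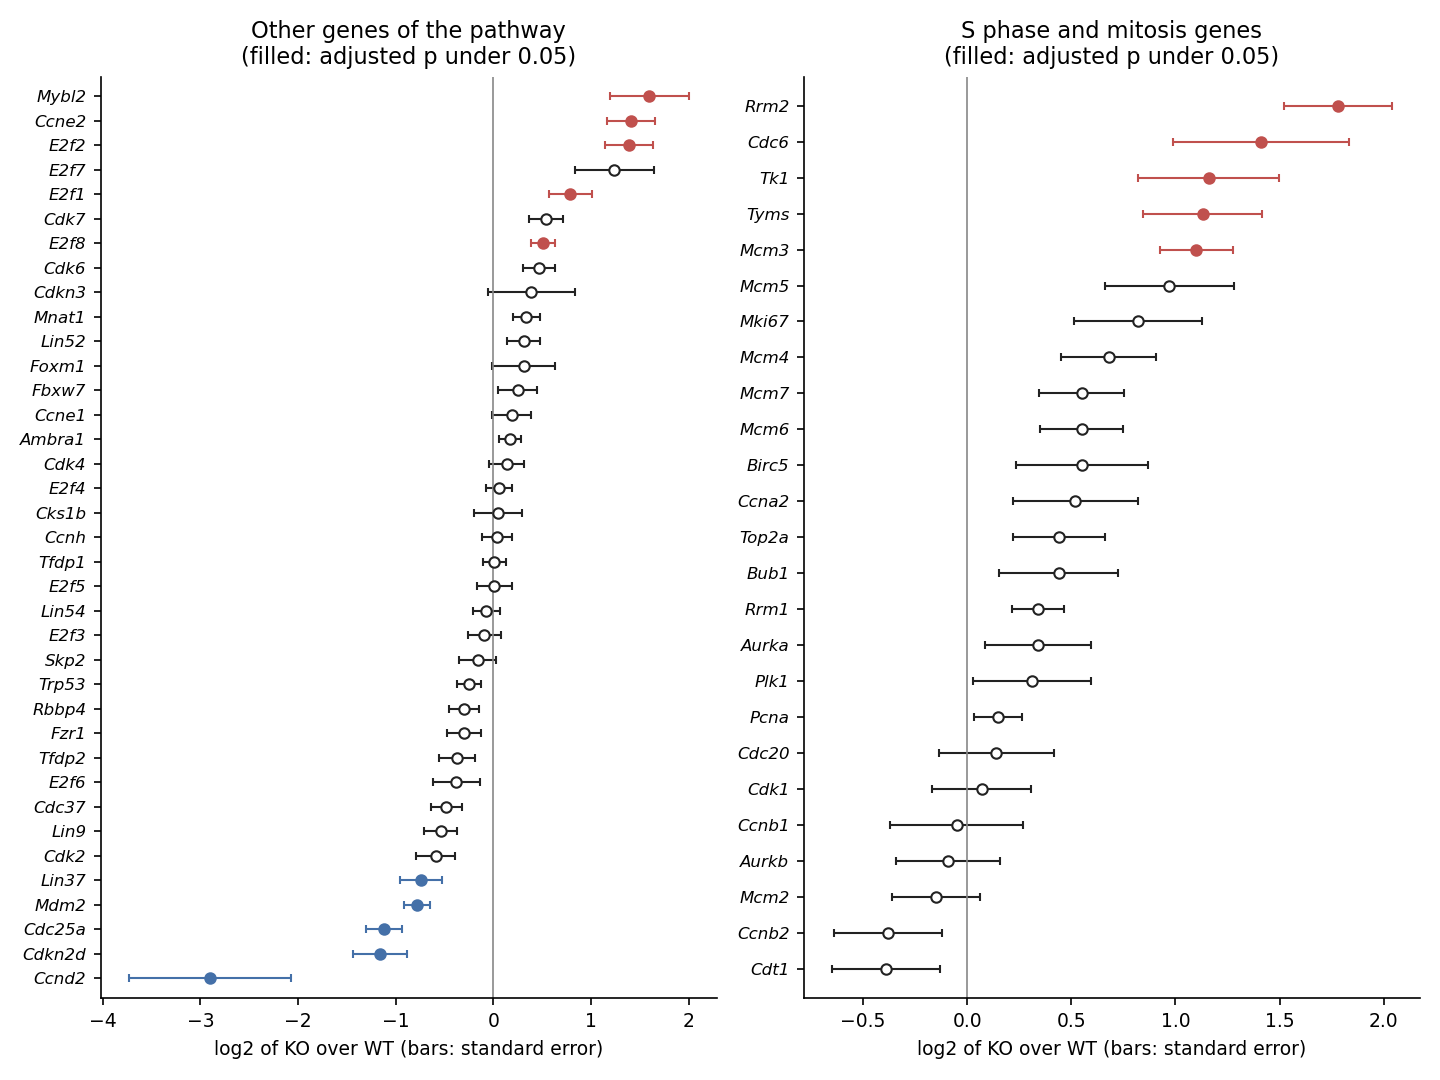
Log2 of KO over WT with bars of 1 standard error for the other genes of the pathway (left) and for S phase and mitosis genes (right), filled where the adjusted p was under 0.05 (red higher, blue lower in KO). The pathway genes fall on both sides of 0 with 5 called each way, and all 5 called S phase genes lie to the right.

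Among 25 genes of S phase and mitosis, many of which E2F and DREAM are known to control, 5 were called higher in KO and 0 lower. These were 20% of the list, beside 22.7% of all genes called in either direction and 12.1% called higher. The median log2 fold change of the list was 0.44. At an unadjusted p under 0.05, 11 were higher and 0 lower, a number near the 39.0% of all tested genes that passed it in either direction. DESeq2 called 8 higher and 0 lower, beside 23.9% of all genes it tested called in either direction. The 3 largest were *Rrm2*, the small subunit of ribonucleotide reductase, at 307, 156 and 212 CPM in KO1 to KO3 and 73, 52.9 and 70.9 CPM in WT1 to WT3 (log2 fold change 1.78, adjusted p = 0.00488), *Cdc6*, a loader of the replicative helicase (1.41, adjusted p = 0.0472), and *Tk1*, thymidine kinase (1.16, adjusted p = 0.0442). *Tyms* and *Mcm3*, named after their values were seen, completed the 5. On TPM, 3 of the 24 tested were called, all higher, beside 20.5% of all genes tested on TPM called in either direction. The summed level of the list was 223, 279 and 325 TPM in KO1 to KO3 and 172, 181 and 183 TPM in WT1 to WT3, KO1 again being nearest to WT. Without KO1, 15 of the 25 were called, beside 30.6% of all genes tested. Without KO2, KO3, WT1 or WT3, 2 were, beside 17.7%, 13.9%, 6.01% and 8.43% of all genes tested. *Rrm2* was called in all 12 alternatives, whereas *Cdc6* and *Tk1* lost their call without any library but KO1 (adjusted p up to 0.163).

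The genes whose profile over the 6 libraries lay nearest to that of *Rb1* were *Elp5*, *Mrpl37*, *Epdr1*, *Urgcp* and *1700021F05Rik*, out of 5339 genes whose mean log2 CPM reached 5. Likeness was the root mean square distance of log2 CPM after removing each gene's mean, and ran from 0.0454 to 0.0628. Their log2 fold changes lay between −0.87 and −0.72. This range follows from choosing them for likeness to *Rb1* and is no separate result. *Ccnd1*, *Cdkn2c*, *Rbl1* and *Cdkn2a* lay below a mean log2 CPM of 5 and so were no candidates. None of the remaining members was among the genes named.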

How the data were processed

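Total RNA of C2C12 cells was measured in 3 *Hnrnpa2b1* KO and 3 WT libraries. The authors deposited raw read counts per gene for all 6 libraries, with no normalization, and all 6 columns of counts were used (0 unused). The authors also deposited StringTie TPM values for each library, summed here where a gene identifier repeated. The submitters' processing notes name FastQC, Trim Galore, STAR, featureCounts, StringTie and Salmon. Their notes and the methods name different genome builds. Of 45137 deposited genes matched by identifier to GENCODE M21 (GRCm38), 83.2% had identical coordinates and 99.86% overlapped, so positions are given on GRCm38.

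The members and gene lists were chosen with earlier results of these data known. Counts were tested with edgeR 4.0.16 in R 4.3.3 (TMM factors of 0.949 to 1.08, filterByExpr, quasi-likelihood test, two-sided, Benjamini-Hochberg adjustment over 14828 genes, threshold 0.05), with no covariate. DESeq2 1.42.0 was an alternative. Genes reaching 1 TPM in 3 or more libraries were tested with limma 3.58.1 on log2(TPM + 1), so a difference on this scale understates the change of low genes. Shares and ratios within a library were compared with exact permutation tests, except the share of *Rb1*, which is only described. Replicate libraries differed by more than counting noise (chi-square per degree of freedom 46.6 to 171). The edgeR, DESeq2 and limma fits were tested on simulated counts, and the other steps were not. Named were the 10 members, the pathway genes called (up to 10 by size) with the 4 most abundant not called, the 3 largest called genes of the proliferation and differentiation lists, and the 5 genes nearest to *Rb1*, beside marker genes. Other genes of these lists were named after their values were seen, as said where they appear. Splicing and protein were not analysed here.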

Additional observations from a re-analysis of the deposited data

How the results depend on the processing

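Over 12 alternatives of the count test, *Cdkn1b* and *Rb1* were called in all, *Ccnd1* in 10, *Ccnd3* in 8, *Cdkn1c* and *Rbl1* in 7 and *Cdkn1a* in 3, and none of these 7 genes changed direction. *Cdkn2c* and *Rbl2*, never called, turned to 0.02 and 0.04 with library totals alone and to 0.00 (both) without WT replicate 1, and with 1 replicate left out ran from −0.28 to 0.00 and from −0.16 to 0.00. Scaling by totals alone moved the median log2 fold change of all genes to 0.15. With 1 replicate left out *Cdk4* ran from −0.03 (without KO replicate 2) to 0.26 and *Tfdp1* from −0.07 to 0.05, and *Tfdp1* also turned to −0.02 with DESeq2 and with no filter and to −0.01 with RLE factors. With 1 replicate left out, the number called lay between 933 (without WT1) and 4712 (without KO1) over all genes, 2 and 7 among the members, 4 and 13 in the pathway list, 2 and 15 in the proliferation list and 0 and 6 among the members on TPM. The proliferation list gave 8 calls with DESeq2 and 10 with no filter on counts, where 4149 of 17329 and 4538 of 30252 genes were called in all. The members on TPM gave 1 with no filter, where 1075 of 27302 genes were called in all. The causes were not tested. Same-numbered KO and WT libraries did not deviate together (correlations of 0.17, −0.12 and −0.07), so the numbers name samples only. With the replicate number as a block, 2520 genes were called in all, 6 members and 6 pathway genes, and the *Cdkn1c* log2 fold change was 1.51. At this depth *Cdkn2a*, with no reads, could not be compared.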
